A study of Rattus norvegicus with 6 samples.

Results

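The vascular endothelial growth factor (VEGF) system was read from 9 genes of the deposited count table, chosen by symbol from 24005 gene symbols. They are 4 ligands (Vegfa, Vegfb, Vegfc and Pgf), 3 tyrosine kinase receptors (Kdr, Flt1 and Flt4) and 2 co-receptors (Nrp1 and Nrp2), and all 9 were among the 15860 genes that passed the filter on low counts. Poly(A)-selected RNA of rat common carotid arteries had been sequenced in 6 libraries. The control was 1 normal artery with no injury. In the other 5 libraries a clot had been induced with ferric chloride, an oxidant salt that damages the vessel wall, and flow had been restored by what the labels call sonodynamic therapy (ultrasound acting on a sensitizer) and physical-explosion therapy. Of these, 3 libraries were of artery taken 1 day and 2 libraries of artery taken 7 days after flow was restored. Strain, sex and age are not given in the labels, nor whether the libraries of a group come from separate animals, so the p-values cover the spread among these libraries, which may be technical. With 1 normal artery and no group given the injury or the treatment alone, the effects of ferric chloride, clot, ultrasound and blast cannot be told apart.

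VEGF-A is a main growth factor of endothelial cells and is known for raising vascular permeability and for driving sprouting. It signals mainly through VEGF receptor 2, the product of Kdr, while VEGF receptor 1, the product of Flt1, binds VEGF-A more tightly, signals weakly and also exists as a soluble form that traps ligand. Placental growth factor (Pgf) and VEGF-B bind VEGF receptor 1 alone among the tyrosine kinase receptors. VEGF-C acts on VEGF receptor 3, the product of Flt4, which is best known from lymphatic endothelium. The neuropilins Nrp1 and Nrp2 hold VEGFs beside these receptors and also bind class 3 semaphorins, and in artery they are found outside the endothelium too. The counts are per gene symbol, so splice forms, such as those of Vegfa and the soluble form of Flt1, are summed.

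Library totals were 30078022 to 47240013 counts, and the count floor of 3 per library lay between 0.0598 and 0.0974 CPM (counts scaled to the normalised library total). Day 1 replicate 1 stood apart from its group. Over all genes tested, its log2 CPM correlated at 0.959 (Pearson) to the normal artery and at 0.899 and 0.934 to replicates 2 and 3 of its own day, which correlated at 0.969. Whether its label is right could not be settled from the files, and every day 1 value that includes it carries that doubt. Genes are not independent replicates, so these r values only describe the libraries. The labelled tissue was checked against markers. Smooth muscle markers (10 genes) summed to 27979 CPM in the control, to 28532, 6594 and 10037 CPM in day 1 replicates 1 to 3, and to 17455 and 17384 CPM at day 7. Endothelial markers (12 genes) summed to 1383 CPM in the control, to 157, 1387 and 374 CPM at day 1, and to 2008 and 1446 CPM at day 7, with Robo4 at 0 counts in day 1 replicates 1 and 3. Monocyte and macrophage markers (11 genes) summed to 89.1 CPM in the control, to 54.2, 6165 and 2779.8 CPM at day 1, and to 6269.7 and 5069 CPM at day 7. The fold changes, counts and medians of the 9 genes at day 1 are therefore given with and without that library.

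Transcripts of the VEGF system stood higher in recanalized arteries than in the normal one for most of the 9 genes. The control was below all 5 treated libraries for 6 of the 9 genes (Vegfa, Vegfb, Vegfc, Kdr, Flt1 and Nrp2), against 20.1% of all genes tested, and without day 1 replicate 1 for 8 of the 9, against 30.4%. The genes were chosen with earlier results of these data known. They share the 1 control, and some vary together (Vegfa and Flt1, r = 0.93 over 6 libraries). Such counts are therefore a description, here and below, and not separate pieces of evidence. No difference passed the main test, edgeR's quasi-likelihood test with Benjamini-Hochberg adjustment over all genes, which called 0 of 15860 genes in each of the 3 comparisons (0%). In bulk tissue a larger number of expressing cells and more RNA per cell cannot be told apart.

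**Figure D1:**
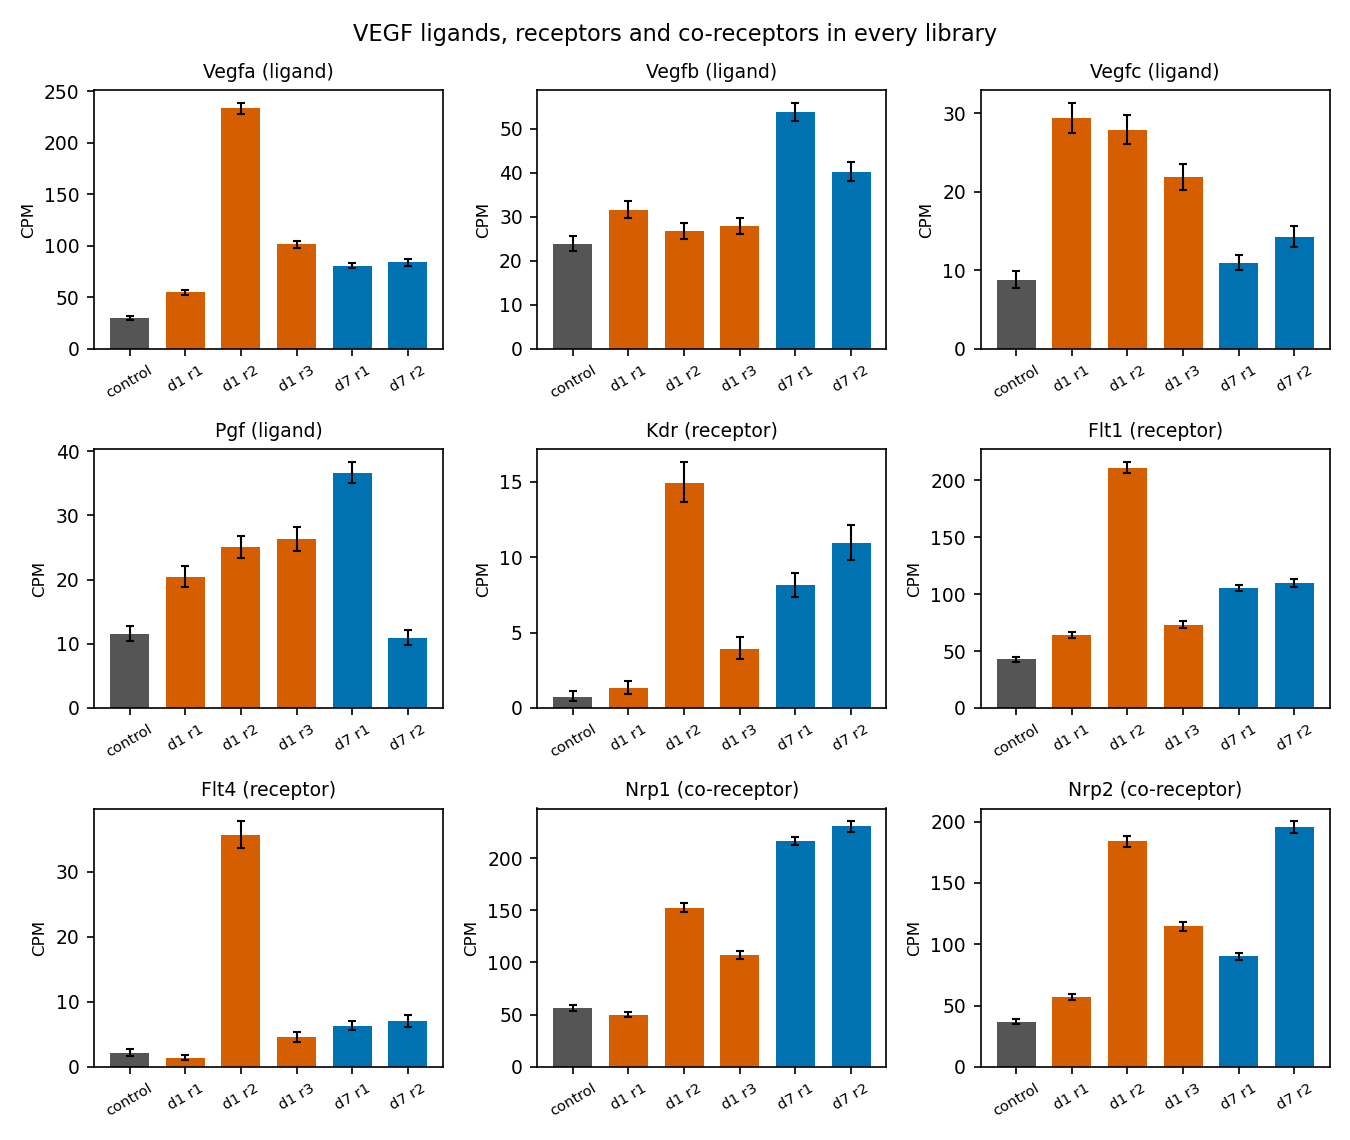
CPM (y axis, linear from 0, 1 scale per panel) of the 9 genes in each library (x axis; d1 and d7 are day 1 and day 7, r is the replicate). Bars are single libraries and lines their exact Poisson 95% intervals, which cover counting error only. Vegfa, Kdr, Flt1 and Flt4 were highest in day 1 replicate 2, Vegfc was high in all 3 day 1 libraries, and Nrp1 was highest in the 2 day 7 libraries.

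Vegfa, which encodes VEGF-A, had 29.6 CPM in the control, 54.98, 234 and 101 CPM in day 1 replicates 1 to 3, and 80.9 and 84.0 CPM in the day 7 libraries. All 5 treated libraries lay above the control, and the day 1 libraries spanned the day 7 pair. Day 1 averaged 130 ± 92.6 CPM (SD, n = 3) and day 7 82.5 ± 2.22 CPM (SD, n = 2), so the spread at day 1 was larger than the distance between the 2 times. Against the control its log2 fold change was 2.13 at day 1 (SE 0.88, edgeR adjusted p = 0.578) and 1.48 at day 7 (SE 0.87, edgeR adjusted p = 0.519). Without day 1 replicate 1 the day 1 value was 2.50 (SE 0.56, edgeR adjusted p = 0.0610), and without day 1 replicate 2 it was 1.40 (SE 0.45, edgeR adjusted p = 0.700). From day 1 to day 7 the log2 difference was -0.66 (SE 0.62), -1.02 without day 1 replicate 1 and 0.08 without day 1 replicate 2, so its direction rested on replicate 2.

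Vegfc, which encodes VEGF-C, had the smallest unadjusted p of the 9 genes at day 1. It stood at 8.80 CPM in the control, 29.4, 27.8 and 21.9 CPM in day 1 replicates 1 to 3, and 10.95 and 14.3 CPM at day 7. The 3 day 1 libraries were close together and none overlapped with the day 7 pair or the control. Against the control the log2 fold change was 1.58 at day 1 (SE 0.36, edgeR adjusted p = 0.449) and 0.52 at day 7 (SE 0.36, edgeR adjusted p = 0.554). From day 1 to day 7 it was -1.06 (SE 0.27, edgeR adjusted p = 0.434). The DESeq2 Wald test called Vegfc in both comparisons, with log2 fold changes of 1.58 (SE 0.40, DESeq2 adjusted p = 0.00376) at day 1 against the control and -1.08 (SE 0.31, DESeq2 adjusted p = 0.0250) at day 7 against day 1. Over 12 alternatives the adjusted p of the first was 0.00376 to 0.736, and over 14 alternatives that of the second was 0.0250 to 1. Without day 1 replicate 1 the values were 1.497 (edgeR adjusted p = 0.0821) and -0.98 (edgeR adjusted p = 0.284), so the size of both differences was nearly as large without the library that stood apart.

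Vegfb, which encodes a ligand of VEGF receptor 1 known from heart and muscle, had 23.9 CPM in the control, 31.6, 26.7 and 27.9 CPM at day 1, and 53.8 and 40.2 CPM at day 7. The day 1 libraries were barely above the control, and the counting interval of day 1 replicate 2 (24.9 to 28.5 CPM) overlapped with that of the control (22.2 to 25.7 CPM), whereas both day 7 libraries were above every other library. Vegfb had a log2 fold change of 0.27 at day 1 (SE 0.29, edgeR adjusted p = 0.762) and 0.98 at day 7 (SE 0.31, edgeR adjusted p = 0.477) against the control, and 0.71 (SE 0.22, edgeR adjusted p = 0.459) from day 1 to day 7. Leaving out day 1 replicate 1, the day 1 value was 0.19 and the difference between the times 0.79.

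Pgf, which encodes placental growth factor, had 11.6 CPM in the control, 20.4, 25.1 and 26.2 CPM at day 1, and 36.6 and 10.9 CPM at day 7. The day 1 libraries were close together and lay above the control, but the day 7 pair differed 3.35-fold and spanned all other libraries. Day 7 replicate 2 (counting interval 9.83 to 12.1 CPM) overlapped with the control (10.4 to 12.8 CPM). The log2 fold change against the control was 1.05 at day 1 (SE 0.69, edgeR adjusted p = 0.631) and 1.04 at day 7 (SE 0.72, edgeR adjusted p = 0.560), and the latter was -0.08 without day 7 replicate 1. The day 1 value was 1.15 without day 1 replicate 1.

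The proximal promoters of the ligand with the widest range and of the ligand that DESeq2 called are shown because these 2 genes behaved differently across the day 1 libraries. They hold the 250 bases before the start in a RefSeq promoter table (build GRCr8), 5′ to 3′, with matches to any of 5 motifs in capitals on either strand. The motifs were GGGCGG (the GC box), ACGTG or GCGTG (the core bound by hypoxia-inducible factors), TGACGTCA (the cyclic AMP response element, CRE), TATAAA (the TATA box) and TGANTCA (AP-1).
Vegfa, chr9:22452604-22452853 (+ strand): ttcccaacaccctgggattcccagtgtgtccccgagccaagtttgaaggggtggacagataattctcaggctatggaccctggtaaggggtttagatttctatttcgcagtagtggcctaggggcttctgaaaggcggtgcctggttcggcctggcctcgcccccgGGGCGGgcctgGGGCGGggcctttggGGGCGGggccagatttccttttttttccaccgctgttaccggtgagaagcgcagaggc
Vegfc, chr16:44560888-44561137 (- strand): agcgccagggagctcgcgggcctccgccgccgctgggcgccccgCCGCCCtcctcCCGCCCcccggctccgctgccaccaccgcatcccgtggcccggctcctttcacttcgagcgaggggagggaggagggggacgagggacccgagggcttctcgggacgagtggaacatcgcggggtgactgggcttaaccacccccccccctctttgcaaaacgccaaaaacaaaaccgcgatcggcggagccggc
The Vegfa window held 3 GC boxes, 53 to 84 bases before the start, and the Vegfc window 2, on the opposite strand and 190 to 206 bases before the start. Of 33469 rat promoter windows of the same length, 30.5% held a GC box. Neither window held the hypoxia core, which was present in 36.7% of windows, nor the CRE, TATA box or AP-1 letters. A missing match says only that these letters are not in this window.

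Flt1, which encodes VEGF receptor 1, had 42.7 CPM in the control, 63.9, 211 and 72.9 CPM in day 1 replicates 1 to 3, and 105 and 109.9 CPM at day 7. Every treated library was above the control, and day 1 replicate 2 was far above the other day 1 libraries. Day 1 averaged 116 ± 82.5 CPM (SD, n = 3) and day 7 108 ± 3.24 CPM (SD, n = 2). The log2 fold change against the control was 1.44 at day 1 (SE 0.79, edgeR adjusted p = 0.603) and 1.34 at day 7 (SE 0.82, edgeR adjusted p = 0.526). With day 1 replicate 1 left out, the day 1 value was 1.73 (SE 0.66, edgeR adjusted p = 0.206). Without day 1 replicate 2 it was 0.68 (SE 0.27, edgeR adjusted p = 0.788) and the day 7 value 1.34 (SE 0.28, edgeR adjusted p = 0.449).

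Kdr, which encodes the main signalling receptor for VEGF-A, had few counts in the normal artery, though above the count floor. The control had 23 counts, or 0.747 CPM (exact Poisson 95% interval 0.473 to 1.12), and day 1 replicate 1 had 41 counts, or 1.31 CPM (0.942 to 1.78), so these 2 libraries overlapped within counting error. Day 1 replicates 2 and 3 had 14.9 and 3.93 CPM, and the day 7 libraries 8.12 and 10.9 CPM. Both day 7 libraries and day 1 replicates 2 and 3 were thus clear of the control, and the day 1 group spanned an 11.4-fold range. Kdr had a log2 fold change of 3.16 at day 1 (SE 1.55, edgeR adjusted p = 0.592) and 3.67 at day 7 (SE 1.63, edgeR adjusted p = 0.477) against the control. Without day 1 replicate 1 the same values were 3.65 (SE 0.97, edgeR adjusted p = 0.0976) and 3.67 (SE 0.97, edgeR adjusted p = 0.107), and without day 1 replicate 2 the day 1 value was 1.81 (SE 0.88). Beside Kdr, Nos3 and Ptprb of the list of VEGF receptor 2 partners, both chosen after their values were seen, had 122 and 293 CPM in the control and 9.06 and 23.2 CPM in day 1 replicate 1. In day 1 replicates 2 and 3 Nos3 had 254 and 44.3 CPM and Ptprb 217 and 51.5 CPM. At day 7 Nos3 had 127 and 63.7 CPM and Ptprb 223 and 256 CPM, so both genes were lowest in day 1 replicates 1 and 3. Nos3 is the endothelial nitric oxide synthase and Ptprb an endothelial phosphatase that acts on VEGF receptor 2.

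Flt4, which encodes VEGF receptor 3, had 2.21 CPM in the control, 1.38, 35.7 and 4.54 CPM in day 1 replicates 1 to 3, and 6.34 and 7.08 CPM at day 7. The day 1 libraries lay on both sides of the control and spanned 26.0-fold, while the day 7 pair was close together and above it. The log2 fold change was 2.65 at day 1 (SE 1.95, edgeR adjusted p = 0.665) and 1.60 at day 7 (SE 1.89, edgeR adjusted p = 0.724) against the control. Without day 1 replicate 2 the day 1 value was 0.42, and without day 1 replicate 1 it was 3.19. Lymphatic endothelial markers (5 genes) summed to 80.4 CPM in the control, 23.6 to 145 CPM at day 1 and 83.4 to 131 CPM at day 7. Of these, Prox1, the defining transcription factor of lymphatic endothelium, did not exceed 0.647 CPM in any library. The other markers did not move alike, so the sum is not 1 signal. Mmrn1, which with 64.7 CPM made up most of the control sum, was lower in every treated library (14.2 to 48.8 CPM). Pdpn, by contrast, rose from 1.43 CPM to between 5.06 and 81.7 CPM. Reln and Lyve1 lay on both sides of their control values. The part of lymphatic cells in the Flt4 values was not tested.

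The promoters of Flt1 and Kdr are shown because the 2 receptors for VEGF-A stood at such different levels, with the same motifs in capitals.
Flt1, chr12:12333180-12333429 (+ strand): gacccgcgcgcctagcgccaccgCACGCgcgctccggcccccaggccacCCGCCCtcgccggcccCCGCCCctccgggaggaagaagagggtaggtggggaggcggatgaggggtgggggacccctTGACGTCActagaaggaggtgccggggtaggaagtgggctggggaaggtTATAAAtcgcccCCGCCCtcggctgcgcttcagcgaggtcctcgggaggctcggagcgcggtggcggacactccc
Kdr, chr14:32571813-32572062 (+ strand): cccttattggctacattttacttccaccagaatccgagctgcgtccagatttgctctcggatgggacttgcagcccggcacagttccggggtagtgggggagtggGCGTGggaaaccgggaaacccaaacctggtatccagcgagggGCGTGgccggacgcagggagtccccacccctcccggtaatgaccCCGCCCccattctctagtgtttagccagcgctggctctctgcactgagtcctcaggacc
The starts are those of the promoter table, and in the gene annotation of the same build they lie 380 bases (Flt1) and 32 bases (Kdr) inside the outer edge of the gene, whereas those of Vegfa and Vegfc coincide with it. The Flt1 window held 1 CRE (117 to 124 bases before the start), 1 TATA box (70 to 75 bases before it), 3 GC boxes and 1 hypoxia core. The CRE letters were in 1.59% and the TATA letters in 12.9% of all windows. The Kdr window held 2 hypoxia cores and 1 GC box and neither the CRE nor the TATA letters. AP-1 letters, in 6.34% of windows, were in neither. G and C made up 73.2% of the Flt1 and 61.6% of the Kdr window, against a median of 51.2% over all windows.

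Nrp1, a co-receptor for VEGF-A and semaphorins, stood at 56.6 CPM in the control, 50.2, 152 and 107 CPM in day 1 replicates 1 to 3, and 216 and 230.4 CPM at day 7. Both day 7 libraries were above every day 1 library and the control, and day 1 replicate 1 was below the control beyond counting error (47.7 to 52.7 against 54.0 to 59.3 CPM). The log2 fold change was 0.87 at day 1 (SE 0.62, edgeR adjusted p = 0.653) and 1.98 at day 7 (SE 0.69, edgeR adjusted p = 0.477) against the control, and 1.11 (SE 0.46, edgeR adjusted p = 0.49996) from day 1 to day 7. With replicate 1 of day 1 left out, the day 1 value was 1.20 (SE 0.34, edgeR adjusted p = 0.109) and the difference between the times 0.78. In that fit the day 7 value was again 1.98 with a smaller SE of 0.36, and it passed (edgeR adjusted p = 0.0346, over 12 alternatives 0.0346 to 0.765).

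Nrp2, a co-receptor known for its part with VEGF-C, had 37.0 CPM in the control, 56.9, 184 and 115 CPM at day 1, and 90.1 and 196 CPM at day 7. All treated libraries were above the control, and the 2 times overlapped. Nrp2 had a log2 fold change of 1.68 at day 1 (SE 0.81, edgeR adjusted p = 0.592) and 1.95 at day 7 (SE 0.86, edgeR adjusted p = 0.477) against the control. It was 2.01 (edgeR adjusted p = 0.119) at day 1 without replicate 1 of that day. The day 7 value was 1.29 without day 7 replicate 2 and 2.40 without day 7 replicate 1.

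**Figure D2:**
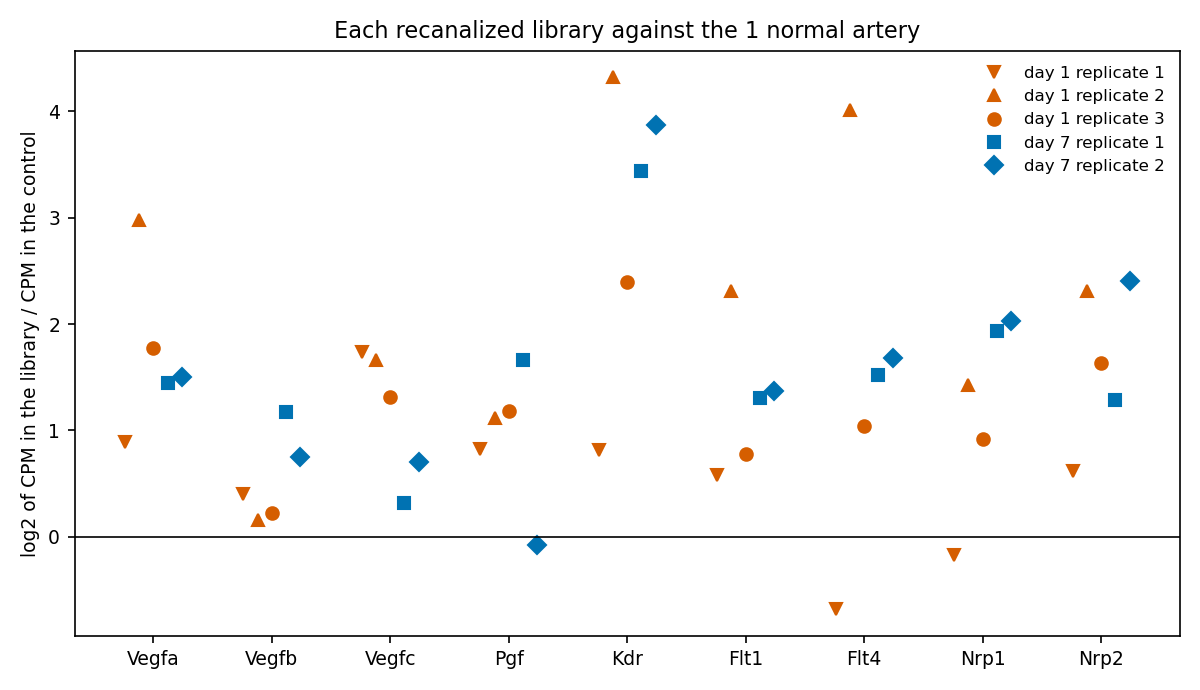
Log2 ratio (y axis) of the CPM in each of the 5 treated libraries to the CPM in the 1 control library, for the 9 genes (x axis). Points are single libraries and the line at 0 is the control. Day 1 replicate 1 is the lowest day 1 point for Vegfa, Pgf, Kdr, Flt1, Flt4, Nrp1 and Nrp2 but the highest for Vegfc and Vegfb, and Kdr reaches 4.32 in day 1 replicate 2.

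Across the family, day 1 replicate 2 held the highest value of all 6 libraries for 4 of the 9 genes (Vegfa, Kdr, Flt1 and Flt4), against 19.5% of all genes tested. At day 1 the control was below every library for 7 of the 9 genes, against 27.5% of all genes, and above every library for 0 of the 9, against 27.2%. Without replicate 1 it was below both remaining day 1 libraries for 9 of the 9, against 40.7%. At day 7 the control was below both libraries for 8 of the 9, against 42.9%, and above both for 0 of the 9, against 36.2%. Both day 7 libraries were above every day 1 library for 2 of the 9 (Vegfb and Nrp1), against 17.2%, and below every day 1 library for 1 of the 9 (Vegfc), against 16%, which for both directions is close to the share of all genes.

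The median log2 fold change of the 9 genes was 1.58 at day 1 and 1.48 at day 7 against the control, where the median over all 15860 genes was 0.06 and 0.09. From day 1 to day 7 it was -0.01 for the 9 genes and -0.00 for all genes. In the fit without day 1 replicate 1 the 3 medians of the 9 genes were 1.73, 1.48 and -0.11, against 0.05, 0.09 and 0.02 over all genes. The 2 comparisons with the control share that 1 library, so their values are not independent. With no adjustment, 1373 genes had an edgeR p under 0.05 at day 1 against the control (8.66%, 1 of the 9 genes, Vegfc), 1601 at day 7 against the control (10.1%, 2 of the 9, Vegfb and Nrp1) and 1602 at day 7 against day 1 (10.1%, 2 of the 9, Vegfb and Vegfc). DESeq2 called 817 genes at day 1 against the control (5.15%, 1 of the 9), 791 at day 7 against the control (4.99%, 0 of the 9) and 505 at day 7 against day 1 (3.18%, 1 of the 9), and limma-voom called 0 in all 3. With replicate 1 of day 1 out of the fit, edgeR called 885 genes at day 1 (5.61%, 0 of the 9) and 693 at day 7 (4.39%, 1 of the 9) against the control.

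**Figure D3:**
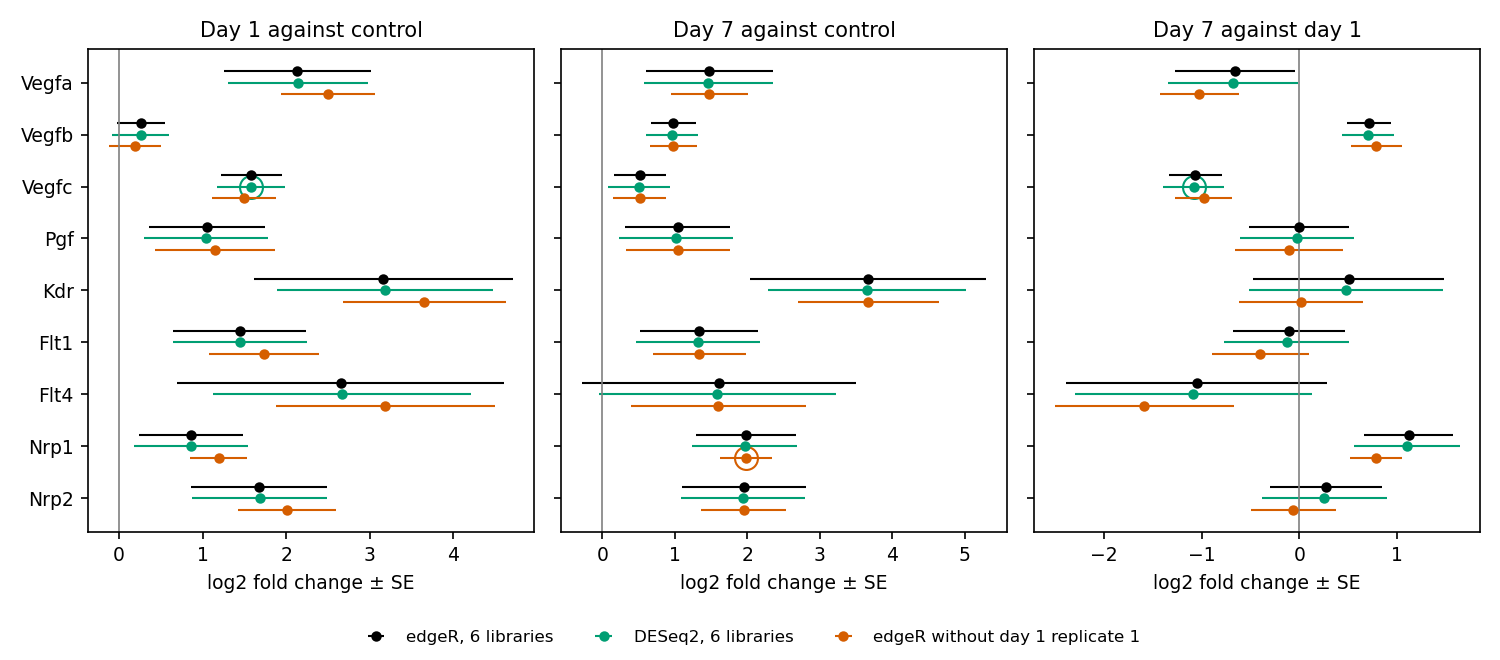
Log2 fold change ± SE (x axes) of the 9 genes (y axis) in the 3 comparisons, from edgeR on all 6 libraries, DESeq2 on the same libraries and edgeR without day 1 replicate 1. The SE of edgeR is calculated back from its F statistic, and that of DESeq2 is its own. A ring marks an adjusted p under 0.05. Rings stand at Vegfc for DESeq2 in 2 comparisons and at Nrp1 for edgeR without day 1 replicate 1 at day 7 against the control, and the SE bars of Kdr and Flt4 are the widest.

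Levels of different genes were compared on the authors' FPKM values, which divide by gene length. In the control Vegfb led with 14.98 FPKM, followed by Nrp1 (10.1 FPKM), Vegfa (8.61 FPKM), Flt1 (7.62 FPKM), Nrp2 (7.12 FPKM), Pgf (7.11 FPKM) and Vegfc (5.40 FPKM), with Flt4 at 0.487 and Kdr at 0.122 FPKM. At day 1 Vegfa led with 39.8 ± 30.3 FPKM (SD, n = 3), ahead of Nrp2 at 23.9 ± 14.2, Flt1 at 21.7 ± 16.6 and Nrp1 at 19.3 ± 10.7 FPKM, and these neighbours did not differ beyond their spread. That order did not hold in day 1 replicate 1, where Vegfb (17.8 FPKM) and Vegfc (16.2 FPKM) were above Vegfa (14.4 FPKM). Without it Vegfa averaged 52.5 ± 29.5 FPKM (SD, n = 2) and Nrp2 31.0 ± 10.3 FPKM. At day 7 Nrp1 led with 43.7 ± 1.74 FPKM (SD, n = 2), followed by Vegfb at 32.4 ± 6.82, Nrp2 at 30.2 ± 15.6, Vegfa at 26.3 ± 0.566 and Flt1 at 21.1 ± 0.520 FPKM. Here Nrp1 was above Vegfb in both libraries, while Nrp2 lay within its own spread of Vegfb, Vegfa and Flt1. Kdr and Flt4 were the 2 lowest of the 9 genes in every library.

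The make-up of the ligand pool differed between libraries. Vegfb made up 41.5% of the summed FPKM of the 4 ligands in the control and Vegfa 23.9%. In day 1 replicate 2 Vegfa made up 57.9% and Vegfb 14.3%, and in day 1 replicate 3 they made up 38.5% and 22.9%. Day 1 replicate 1 had 24.1% Vegfa, near the control, but the largest Vegfc share of any library at 27.1%, against 14.95% in the control. At day 7 Vegfb was back at 39.0% and 38.7%, with Vegfa at 27.2% and 37.5%. The summed level of the 4 ligands was 36.1 FPKM in the control, 59.7, 127 and 82.1 FPKM at day 1 and 95.4 and 71.3 FPKM at day 7, so it was above the control in all 5 treated libraries.

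Among the 3 tyrosine kinase receptors Flt1 made up most of the FPKM everywhere. Its share was 92.6% in the control, 95.7%, 78.5% and 88.8% at day 1, and 87.3% and 85.4% at day 7. Kdr made up 1.49% in the control, 1.80%, 5.08% and 4.38% at day 1, and 6.17% and 7.78% at day 7, so both day 7 libraries had the highest Kdr shares. In FPKM, Flt1 was 62.4 times Kdr in the control, 53.1, 15.4 and 20.3 times at day 1, and 14.2 and 10.97 times at day 7. The control ratio rests on 23 Kdr counts.

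**Figure D4:**
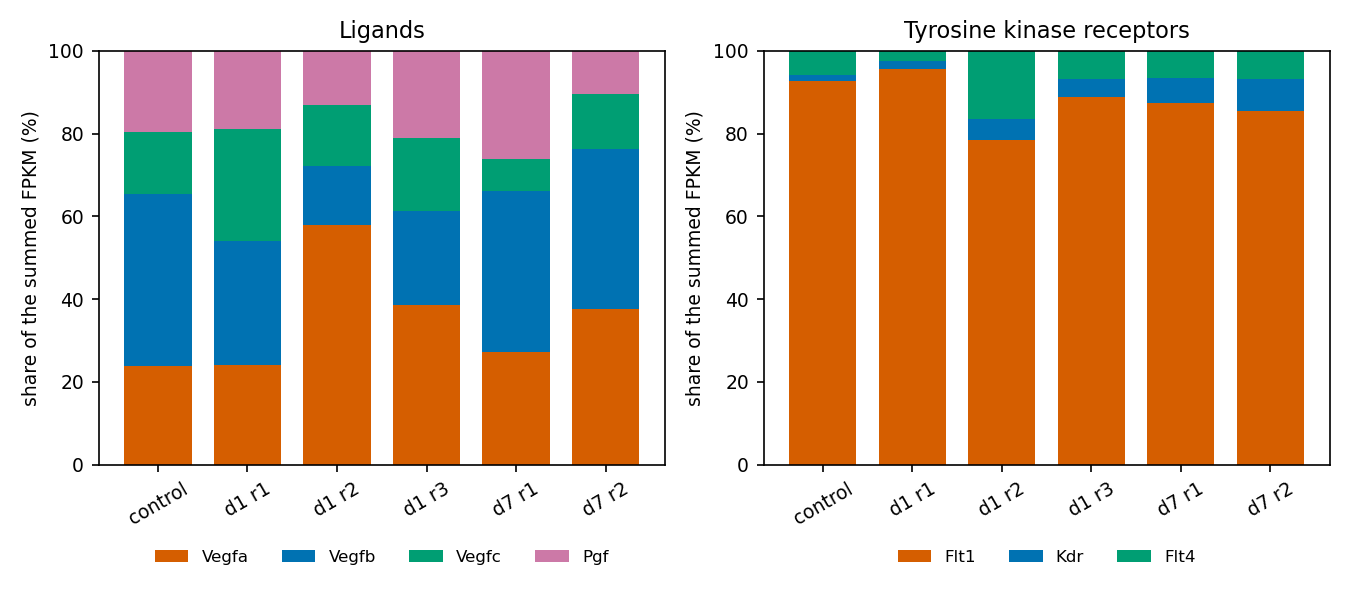
Share of the summed FPKM (y axes, %) of the 4 ligands (left) and the 3 tyrosine kinase receptors (right) in each library (x axes; d1 and d7 are day 1 and day 7, r is the replicate). Each bar is 1 library. Vegfa takes 57.9% of the ligands in day 1 replicate 2, and Kdr goes from 1.49% of the receptors in the control to 7.78% in day 7 replicate 2.

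The receptors were set beside the summed endothelial markers. In day 1 replicate 1 the endothelial sum was 157 CPM against 1383 in the control, with Vwf (von Willebrand factor) at 65.1 against 721 CPM, Tie1 (an endothelial receptor) at 5.60 against 89.0 CPM and Pecam1 (a junction protein) at 11.8 against 169 CPM. Erg, an endothelial transcription factor of the same list, was at 34.1 against 33.3 CPM. Flt1 in the same library was 63.9 against 42.7 CPM. Per 100 CPM of endothelial markers, Flt1 was 3.09 CPM in the control, 40.7, 15.2 and 19.5 CPM at day 1, and 5.25 and 7.601 CPM at day 7. Kdr on the same scale was 0.0540 CPM in the control, 0.837, 1.08 and 1.05 CPM at day 1, and 0.404 and 0.756 CPM at day 7. All 5 treated libraries were above the control on this scale for both receptors, day 1 replicate 1 included, and every day 1 library was above both day 7 libraries. The endothelial markers did not move alike, so these ratios to the sum need not hold for single markers. In day 1 replicate 2 Cdh5 (149 against 18.4 CPM) and Tie1 (347 against 89.0 CPM) were above the control. Vwf (262 against 721 CPM) and Pecam1 (115 against 169 CPM) were below the control in that library. Vwf makes up 721 of the 1383 CPM in the control. With the other 11 markers alone all 5 treated libraries were again above the control, and for Flt1 the order of the times was the same. For Kdr it was not, with 1.43, 1.33 and 1.31 CPM at day 1 and 0.809 and 1.71 CPM at day 7. With Vwf included, Flt4 and the ligand Vegfa had the same order as Flt1. Vegfa had 2.14 CPM in the control, 35.0, 16.8 and 27.2 CPM at day 1, and 4.03 and 5.81 CPM at day 7. Vegfb, Nrp1 and Nrp2, again with Vwf included, were above the control in all 5 treated libraries, without that order of the times. Vegfc in day 7 replicate 1 and Pgf in day 7 replicate 2 were below the control. With the other 11 markers alone, Vegfb in day 1 replicate 2 was also below the control (2.37 against 3.61 CPM). The marker sum divides every gene alike, so its low values in day 1 replicates 1 and 3 raise all ratios there. This is a description of ratios within libraries, without a test.

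Markers of other cell types differed between the libraries too. Monocyte and macrophage markers, given above, were low in the control and day 1 replicate 1 and high in the other 4 libraries, the 4 in which Flt4 and Nrp1 were above the control. All 11 of these markers had a positive log2 fold change at day 7 and 10 of 11 at day 1, and 0 were called by edgeR. Fibroblast markers (7 genes) summed to 3601 CPM in the control, 2307 to 3275 CPM at day 1 and 4473 to 6175 CPM at day 7. Their sum was thus high in the day 7 libraries, as Nrp1 and Vegfb were, and 6 of the 7 had a positive log2 fold change there. Col14a1 was below the control in both day 7 libraries (612 and 719 against 1083 CPM). In day 7 replicate 2 Gsn (902 against 1413 CPM) and Pi16 (44.9 against 56.6 CPM) were below the control too. Pericyte markers (5 genes) summed to 2145 CPM in the control, 1247 to 2234 CPM at day 1 and 1015 to 1271 CPM at day 7. Erythroid markers (5 genes) summed to 237 CPM in the control, 2333.7, 1284 and 1229 CPM at day 1, and 527 and 42.7 CPM at day 7. Neutrophil markers (6 genes) summed to 1.62 CPM in the control, 19.8 to 82.7 CPM at day 1 and 13.3 to 13.9 CPM at day 7. Both sums, like Vegfc, were higher in every day 1 library than at day 7 and in the control. Not every neutrophil marker had that order. S100a9 did, with 9.83 CPM in day 1 replicate 1 against 3.81 and 0.486 CPM at day 7. Csf3r did not, with 4.39 CPM in day 1 replicate 1 against 5.11 and 12.1 CPM at day 7. Smooth muscle markers were lowest in day 1 replicate 2, where Vegfa, Kdr, Flt1 and Flt4 were highest. Their part in the VEGF values was not tested.

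**Figure D5:**
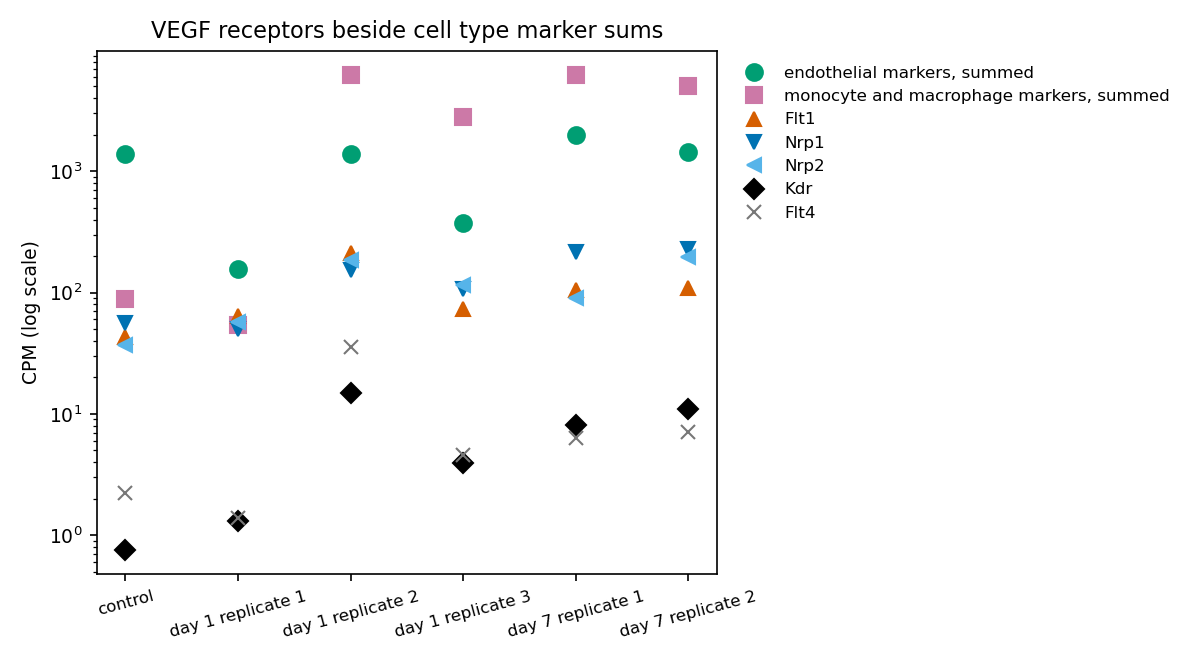
CPM on a log scale (y axis) of the 5 receptor and co-receptor genes, of 12 endothelial markers summed and of 11 monocyte and macrophage markers summed, in each library (x axis). Each point is 1 library. In day 1 replicate 1 the endothelial sum is 157 CPM against 1383 in the control while Flt1 is 63.9 against 42.7 CPM.

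Genes upstream and downstream of the 9 were read from 5 lists. In the list of oxygen sensing and upstream control of Vegfa, 7 of 16 genes had a higher and 9 a lower fold change at day 1 (median -0.03 on the log2 scale), and 6 were higher and 10 lower at day 7 (median -0.12). Hif1a, the oxygen-regulated transcription factor that induces Vegfa, had 69.2 CPM in the control, 114, 316 and 165 CPM at day 1 and 64.3 and 113 CPM at day 7. Like Vegfa it was highest in day 1 replicate 2, but at day 7 it lay on both sides of the control. Ldha (lactate dehydrogenase A) had 193 CPM in the control, 276, 588 and 428 CPM at day 1 and 288 and 273 CPM at day 7. Ndrg1, a hypoxia-induced gene, had 94.7 CPM in the control, 131 to 190.1 CPM at day 1 and 354 and 170.4 CPM at day 7. Both were above the control in all 5 treated libraries, and 0 of the 16 genes were called in any of the 3 comparisons by edgeR.

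The 31 genes of VEGF receptor 2 signalling were centred near all genes. At day 1 against the control 16 were higher and 15 lower (median log2 fold change 0.04), and at day 7 15 were higher and 16 lower (median -0.03), with 0 called. Its 3 most abundant members were Rac1 and Cdc42, small GTPases of the cytoskeleton, and the small heat shock protein Hspb1. Rac1 was at 366 CPM in the control and 322 to 388 CPM in the treated libraries, and Cdc42 at 286 CPM and 280 to 332 CPM. Hspb1 had 180.2 CPM in the control, 423, 141 and 127 CPM at day 1 and 278 and 374 CPM at day 7.

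Genes that VEGF is known to induce in endothelium, with tip cell genes, had the highest list median. Of 15, 12 were higher at day 1 (median log2 fold change 1.40) and 12 at day 7 (median 1.38), with 0 called by edgeR in either. Mmp14, a membrane-bound metalloproteinase, had 317 CPM in the control, 343, 753 and 563 CPM at day 1 and 717 and 1085 CPM at day 7. Rcan1, a calcineurin inhibitor, had 80.0 CPM in the control and 448 CPM in day 1 replicate 1, but 49.9 to 94.5 CPM in the other 4 treated libraries. Adamts1, a secreted protease, had 549 CPM in the control, 687 to 1006 CPM at day 1 and 420.4 and 213 CPM at day 7. Among genes chosen after their values were seen, Dll4, the Notch ligand of tip cells, had 0.909 CPM in the control, 0.608, 24.02 and 5.41 CPM at day 1 and 5.39 and 4.46 CPM at day 7. Its order over the libraries was that of Flt4 for the control and all 3 day 1 libraries, with the lowest value in day 1 replicate 1 and the highest in day 1 replicate 2. Aplnr, the apelin receptor, had 0.0649 CPM in the control, 0.544, 3.98 and 0.644 CPM at day 1 and 8.48 and 16.2 CPM at day 7, so both day 7 libraries were above all others. Angpt2, a ligand of the Tie2 receptor, was lower in every treated library, with 136 CPM in the control, 44.8 to 92.9 CPM at day 1 and 51.9 and 24.8 CPM at day 7.

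VEGF-C is made as a precursor that proteases trim, and the list for VEGF-C and VEGF-D processing held 10 genes, of which 7 were higher at day 1 (median log2 fold change 0.41) and 6 at day 7 (median 0.25), with 0 called. Its most abundant members were Itga9, an integrin subunit of lymphatic valves, the procollagen protease Adamts2 and the proprotein convertase Furin. Itga9 had 1016 CPM in the control, 1004, 357 and 446 CPM at day 1 and 250.2 and 244 CPM at day 7. Adamts2 had 576 CPM in the control, 567, 275 and 249.8 CPM at day 1 and 246 and 251 CPM at day 7. Furin, which cuts the precursor, had 222 CPM in the control and 213 to 344 CPM in the treated libraries. Also chosen after their values were seen, Adamts3, the main VEGF-C activating protease, had 4.71 CPM in the control, 6.12, 16.4 and 11.1 CPM at day 1 and 1.56 and 2.89 CPM at day 7. Like Vegfc it was above the control in all 3 day 1 libraries and below them all at day 7, but unlike Vegfc it was lowest of the 3 in replicate 1. VEGF-D, the remaining VEGF ligand, is listed in the files under its older symbol Figf and had 4.12 CPM in the control, 1.41, 6.69 and 8.89 CPM at day 1 and 5.90 and 12.6 CPM at day 7.

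Of 13 semaphorin and plexin partners of the neuropilins, 5 were higher and 8 lower at day 1 (median log2 fold change -0.12), and 6 were higher and 7 lower at day 7 (median -0.16), with 0 called. Plxnd1, an endothelial plexin, had 161 CPM in the control, 107, 326 and 202 CPM at day 1 and 226 and 203 CPM at day 7. The secreted semaphorins Sema3c and Sema3f were lower at day 7, with 69.1 and 83.7 CPM against 173 CPM in the control for Sema3c, and 126 and 121 CPM against 186 CPM for Sema3f. At day 1 Sema3c had 193, 142 and 150.3 CPM and Sema3f 165, 106 and 104 CPM, so Sema3f was below the control at both times. Sema3e, chosen after its values were seen, had 0.678 and 1.82 CPM at day 7 but 0 counts in the normal artery. The list medians without day 1 replicate 1 at day 1 were -0.08 (oxygen sensing), -0.03 (VEGF receptor 2), 1.56 (genes induced by VEGF), 0.63 (VEGF-C processing) and 0.02 (semaphorins). In that fit edgeR called 5 listed genes at day 1 against the control, where it called 5.61% of all genes. They were Dab2 and Sh2d2a (VEGF receptor 2, 2 of 31), Plaur and Stc1 (induced by VEGF, 2 of 15) and Adamts14 (VEGF-C processing, 1 of 10). At day 7 against the control it called 4.39% of all genes, among them Itga9 (VEGF-C processing, 1 of 10) and Sema3d (semaphorins, 1 of 13). The other lists had 0 called in each case, and the counts were not tested against those shares. These names were chosen after their values were seen.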

How the data were processed

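The members and lists were chosen with earlier results of these data known. Read counts per gene symbol were deposited by the authors, as were FPKM values, which on 12848 genes with 10 or more counts in every library equal the counts divided by 1 length per gene and the library total (relative spread at most 2.18e-14). Per the submitters' processing notes, the tools were HISAT2, StringTie 1.3.1, Bowtie2 2.2.8 and fastp 0.18.0; their settings, the strand, the build and the annotation: not given in the sources used here.

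Counts of genes passing filterByExpr of edgeR 4.0.16 (R 4.3.3) were normalised by the trimmed mean of M-values and tested with the quasi-likelihood test with robust dispersions, in 1 fit with 3 group means. The fit has 3 residual degrees of freedom, all from treated libraries, so the lone control is taken to have their spread. The SE given for edgeR is the absolute log2 fold change divided by the square root of the test's F statistic. It is thus not the same quantity as the SE that DESeq2 reports. The threshold was a Benjamini-Hochberg adjusted p of 0.05 over all genes. CPM use the same factors. Poisson intervals cover counting error only. Alternatives used DESeq2 1.42.0 and limma 3.58.1, and limma was also run on log2(FPKM + 1) and log2(FPKM + 0.1). The text names the 9 members, the 3 most abundant genes of each pathway list (5 lists; up to 5 called genes would have been added), markers, the genes most similar to a member over the libraries, and genes said to be chosen after their values were seen. Promoters were matched by symbol in RefSeq's GRCr8 table (9 of 9 matched). The genes most similar to Vegfb and Nrp1 are not reported here.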

Additional observations from a re-analysis of the deposited data

How the results depend on the processing

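Over 12 alternatives against the control and 14 between the times, the count of genes called moved from 0 as follows. DESeq2 called 817 genes at day 1 and 791 at day 7 against the control and 505 at day 7 against day 1, with 1, 0 and 1 of the 9 members. limma-trend on log2(FPKM + 1) called 1 and 3 genes at day 1 and day 7 against the control and on log2(FPKM + 0.1) 1 and 1, with 0 members, and without a count filter 1 gene was called at day 7. Leaving out 1 library gave 0 to 885 genes at day 1 and 0 to 693 at day 7 against the control, with 0 to 1 members at day 7, both maxima without day 1 replicate 1. All 9 members kept a positive sign against the control under every alternative, except Pgf at day 7 (-0.0802 to 1.66 with 1 library left out). Between the times, Vegfb, Vegfc and Nrp1 kept their sign. Kdr kept its sign only narrowly, with 0.0142 without day 1 replicate 1 and 1.86 without day 1 replicate 2 (0.50, SE 0.97, on all 6 libraries). The other 5 genes did not keep theirs. With 1 library left out these gave log2 differences of -1.02 to 0.0757 (Vegfa), -1.13 to 0.61 (Pgf), -0.40 to 0.65 (Flt1), -1.59 to 1.18 (Flt4) and -0.40 to 0.74 (Nrp2). Pgf was also 0.0441 with upper-quartile factors and 0.0019 without a count filter. Flt1 was 0.12 and Flt4 0.11 with limma-voom, Flt1 0.21 on log2(FPKM + 1), and Flt1 0.23 and Flt4 0.15 on log2(FPKM + 0.1), which moved the median of all genes to 0.15. The cause was not tested. The replicate numbers of the titles pair only 2 libraries of each time, and nothing else in the labels ties them. The authors' column names number the day 7 libraries 2 and 3, which gives other pairs. Deviations of same-numbered libraries had r of -0.06 and -0.07 across genes by title, and 0.07 and -0.01 by column name. With 2 libraries at day 7 their deviations mirror each other, so the sign of r cannot settle the pairing. The 5 treated libraries alone gave 0 calls without and with a replicate block by title number, where Vegfc had -1.19 (SE 0.31). Where 1 day 7 library was left out, the lone one was assumed to vary like the others. With 1 control, its own spread is unknown, and depth limits only Kdr and Flt4, with 23 and 68 control counts.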

Other observations

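For each member the 3 genes with the most similar log2 CPM over the 6 libraries were read out among those whose mean log2 CPM reached 3. The 6 points share libraries and depth, so the r values are a description with no p. Nrp2 was closest to Cers6, a ceramide synthase (r = 0.999, n = 6), which had 3.12 CPM in the control, 5.64, 23.2 and 12.7 CPM at day 1 and 9.60 and 27.0 CPM at day 7. Vegfc was closest to Ptx3, a secreted pentraxin of inflamed vessels (r = 0.992, n = 6), with 1.69 CPM in the control, 39.4, 32.8 and 17.9 CPM at day 1 and 3.35 and 4.19 CPM at day 7, and next to Osmr, the oncostatin M receptor (r = 0.988), and Prc1, a mitosis gene (r = 0.987). Flt4 was closest to Selp, the endothelial and platelet adhesion molecule P-selectin (r = 0.995, n = 6), which had 5.62 CPM in the control, 3.71, 115 and 11.6 CPM at day 1 and 19.7 and 15.5 CPM at day 7. The closest gene was Chd7 for Vegfa (r = 0.992), Impdh2 for Pgf (r = 0.987), Tor2a for Kdr (r = 0.998) and Aen for Flt1 (r = 0.997). Among 9841 genes compared, 61 had r above 0.95 with Vegfc, 28 with Flt4, 56 with Nrp2 and 182 with Nrp1. The same count was 100 for Vegfa, 11 for Pgf, 35 for Flt1 and, among 9842 genes, 137 for Kdr. A closest gene is thus 1 of many with a similar course.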
